A study of Homo sapiens with 15 samples.

Results

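A375 is an established human melanoma line whose mutant BRAF is constantly active, and MYC T58A is a form of the transcription factor MYC with its threonine at position 58 replaced by alanine. RNA from A375 cells given MYC T58A (MYC T58A, 3 libraries) was set against RNA from the untouched line (Parental, 3 libraries). The series calls the samples biological triplicates, so p-values carry the spread between those libraries. Both groups share the A375 background and were grown in normal culture short of confluency, and the labels give them no drug. On the vector and promoter of the construct, the time since its introduction, and pool or single clone for the MYC T58A cells, the sources used here give nothing. The series also holds 9 libraries labelled as from a drug-resistant clonal population, 3 without a hairpin and 6 with 1 of 2 hairpins against MYC. MYC goes against the hairpin labels: it averaged 486 ± 29.5 normalized reads in the libraries labelled shMYC1 and 7817 ± 259.8 in those labelled shMYC2, against 302 ± 28.1 in the resistant cells (SD, n = 3 each). All 9 share in the estimate of the spread. The resistant cells are also set beside MYC T58A for chromosome medians and some lineage genes, in places with the libraries of the hairpin labels. The members are the genes with a normalized read count of at least 10 in at least 3 of the 6 libraries, which were 15641 of the 18322 genes in the table.

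MYC binds DNA as a dimer with MAX, mostly at the sequence CACGTG, the E-box, and raises genes for ribosomes, nucleotides, amino acids and other needs of growing cells. The MXD proteins, MXI1, MNT and MGA compete for MAX and oppose MYC. Threonine 58 is phosphorylated by GSK3 and read by the ubiquitin ligase FBXW7, so that MYC lacking it is degraded more slowly. Melanoma descends from melanocytes, pigment cells of the neural crest, and SOX10 and MITF are the transcription factors best known for keeping that identity.

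The 3 MYC T58A libraries held 24415163 to 28227222 reads in genes and the 3 Parental libraries 24812116 to 25202625. Values are normalized read counts as deposited, which are reads divided by a size factor of the library, and levels are not compared between genes because they are not per length. Across genes, libraries of the same group correlated at 0.995 to 0.996 on the log2 scale, and MYC T58A libraries with Parental libraries at 0.922 to 0.925. No pair of libraries within a group was as alike as sampling noise allows. MYC T58A library 3 stood farther from the other libraries of its group (chi-square per gene 5.51 and 5.85) than these did from each other (2.50), and the Parental pairs ranged between 1.64 and 1.81. Of the 18322 genes, 575 to 665 had no read in a MYC T58A library and 296 to 330 had none in a Parental library. A bulk library cannot tell fewer cells with a transcript apart from less transcript per cell.

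Most of the transcriptome differed between the groups, and the largest changes were losses. Of the 15641 genes, 10396 (66.5%) passed the test, 5017 (32.1%) higher in MYC T58A and 5379 (34.4%) lower (limma on log2 of the value plus 1, Benjamini-Hochberg adjusted p under 0.05). Many of these differences were small. The median size of a called difference was 0.61 on the log2 scale, and 4249 of the calls (40.9%) were under 0.5. Differences of at least 1 numbered 1127 upward and 1829 downward, and those of at least 3 numbered 81 upward and 468 downward. The median of all 15641 log2 differences was -0.01. The MYC T58A and Parental libraries did not overlap for 11849 genes (75.8%), of which 5789 (37.0%) were higher in MYC T58A and 6060 (38.7%) lower. Permuting 3 against 3 libraries for a single gene (exact, two-sided) cannot go below p = 0.1, so the calls rest on the spread shared across genes and groups. In what follows, "rose", "fell", "higher" and "lower" stand for genes that passed this test, and folds are on the log2 scale of the value plus 1, which understates those of genes with few reads.

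The filter let 258 genes through that were under 10 in every Parental library and 623 that were under 10 in every MYC T58A library. Genes of that kind had to differ to be among the members. Ranked by the value that decides it, the third highest of the 6, the lowest gene inside was at 10.02 (among others AC005077.12), and the highest outside at 9.70 (among others AC008982.2).

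**Figure D1:**
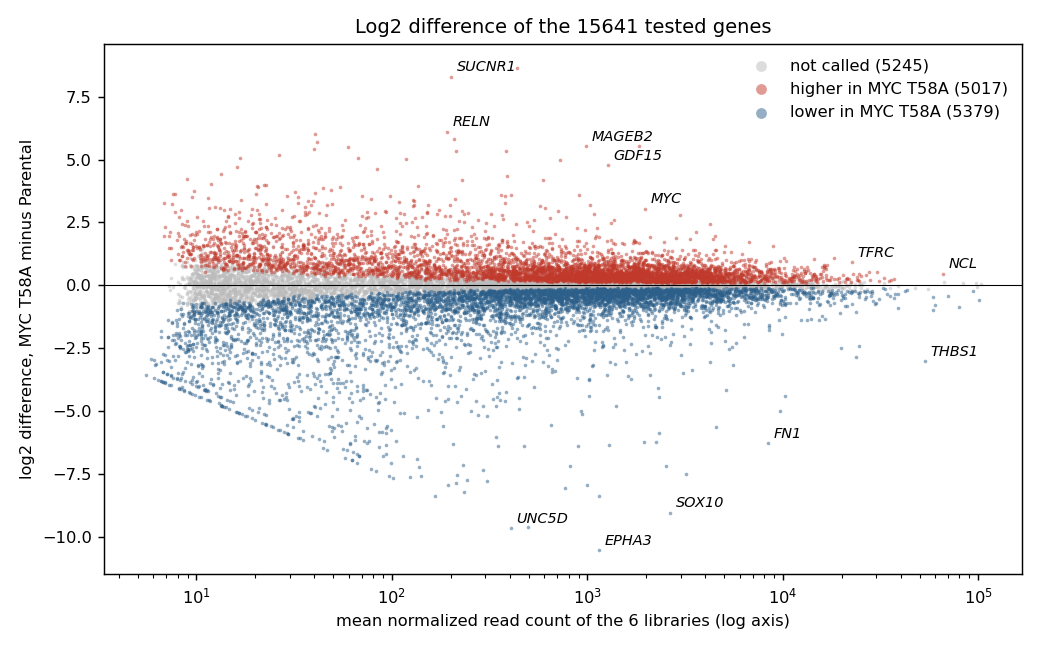
Log2 difference of MYC T58A minus Parental (vertical axis) against the mean normalized read count of the 6 libraries (horizontal, log axis) for the 15641 genes; red genes were called higher in MYC T58A (5017), blue ones lower (5379) and grey ones were not called. The cloud reaches farther down than up: 468 genes were lower by at least 3 and 81 higher by at least 3.

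MYC itself stood at 3612, 3425 and 3496 normalized reads in MYC T58A, against 436, 419 and 413 in Parental. All MYC T58A libraries lay far above all Parental ones. MYC was 8.29-fold higher (log2 difference 3.05, SE 0.0635, adjusted p = 7.47e-17), and reads of the construct and of the gene on chromosome 8 are counted together. Of the 11 measured members of its dimerisation network, MYC included, 5 rose (45.5%) and 2 fell (18.2%), beside 32.1% and 34.4% of all tested genes. Among those that rose is MYC itself, which was introduced into these cells, so its rise is given by the design. MAX, the obligate partner of MYC, had 3165, 3075 and 3482 normalized reads in MYC T58A, against 1793, 1796 and 1891 in Parental, a gap wider than the spread of either group (log2 difference 0.83, SE 0.0711, adjusted p = 1.43e-08). MXI1, which competes with MYC for MAX and represses, had 944, 1009 and 965 normalized reads in MYC T58A, against 314, 319.5 and 274 in Parental and was 3.21-fold higher (adjusted p = 8.38e-13). Of the remaining repressive partners, MXD3 was 1.91-fold lower and MXD1 1.23-fold lower. MXD4 (log2 0.13, adjusted p = 0.298) and MNT (log2 0.16, adjusted p = 0.0587) did not pass the test, though after quantile normalization MXD4 did (0.30, adjusted p = 0.0233). MGA, which pairs with MAX in a repressive complex, was higher by 0.26 (adjusted p = 0.0324), a call lost without any of 4 single libraries (Parental 1 or 2, MYC T58A 1 or 2; adjusted p = 0.0657 to 0.0925). In the parallel branch of the network, the glucose-responsive MLXIP was 1.41-fold higher, while its partner MLX (log2 -0.09, adjusted p = 0.0894) and the MYC relative MYCL (log2 0.29, adjusted p = 0.384) did not pass. MYCL passed after quantile normalization (0.88, adjusted p = 0.0267).

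Among 21 cofactors and turnover factors of MYC, 10 rose (47.6%) and 7 fell (33.3%), with a median log2 of 0.13. The share that fell was close to that of all tested genes (34.4%). SKP2, a ubiquitin ligase subunit that acts on MYC, had 6375, 6392 and 5897 normalized reads in MYC T58A, against 2943, 2914 and 2958 in Parental and was 2.12-fold higher. It lies in a stretch of chromosome 5 that was higher as a whole (median of its 51-gene window 0.48). The histone acetyltransferase KAT2A was 1.69-fold higher and FBXW7, the ligase that reads phosphorylated threonine 58, 1.45-fold higher. PIM1, a kinase that cooperates with MYC, was 1.77-fold lower.

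**Figure D2:**
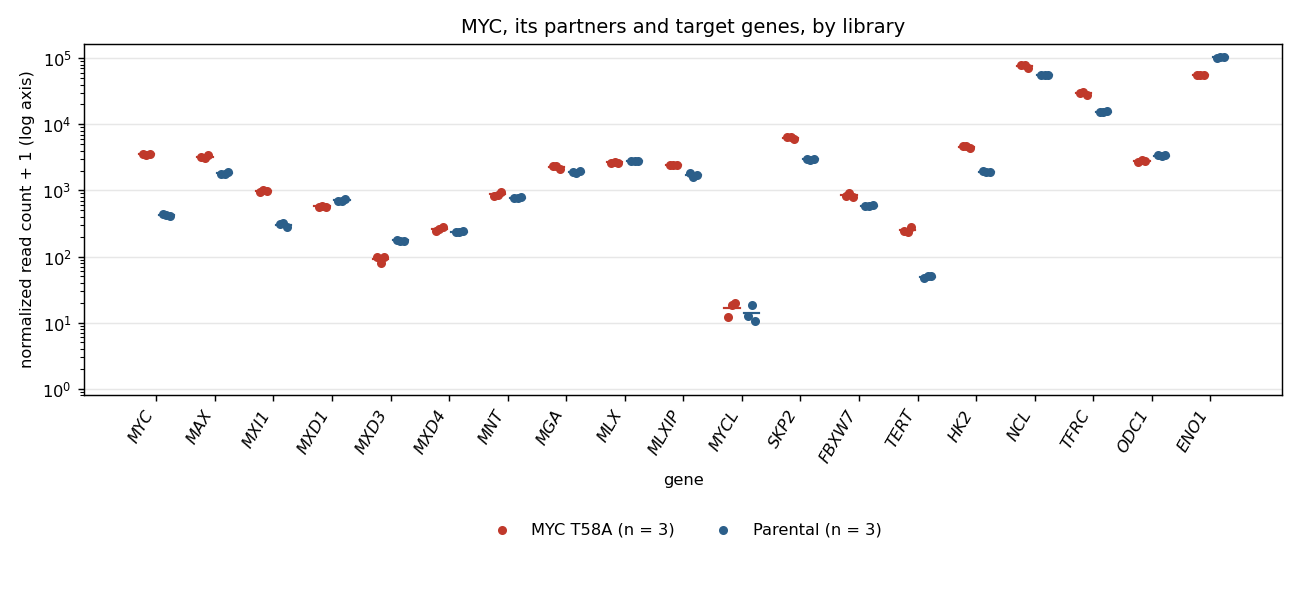
Normalized read count plus 1 (vertical, log axis) of MYC, its partners and a set of target and turnover genes in each library; for each gene the 3 MYC T58A libraries are red on the left and the 3 Parental libraries blue on the right, with the group mean as a line. MYC, MAX, MXI1, SKP2, TERT, HK2 and TFRC show the red libraries above the blue ones, and MXD3, ODC1 and ENO1 the reverse.

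Known targets of MYC rose more often than they fell. Of 54 measured targets, 32 rose and 10 fell, with a median log2 difference of 0.25 beside -0.01 for all genes and 0.37 once the median of each gene's chromosomal window was taken off. TERT, the catalytic subunit of telomerase, had 240.4, 237 and 278 normalized reads in MYC T58A, against 46.7, 49.2 and 49.04 in Parental and was 5.11-fold higher (log2 difference 2.35, SE 0.164, adjusted p = 8.72e-10), where the chromosome 5 window had a median of 0.53. The hexokinase HK2 stood at 4622, 4778 and 4436 normalized reads in MYC T58A, against 1949, 1910.1 and 1921 in Parental (log2 difference 1.26, SE 0.058, adjusted p = 3.26e-12). BOP1, which processes ribosomal RNA, was 2.28-fold higher, with the MYC T58A libraries spread between 714 and 976. ENO1, a glycolytic enzyme and also a classic target, was 1.83-fold lower and lies on chromosome 1, where its window had a median of -0.53.

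The E-box itself was looked up in the RefSeq promoter windows, each 300 bases long and running 250 bases before to 50 after a gene's start (GRCh38.p14). CACGTG reads the same on both strands. It was present in 2396 of all 27305 genes with a window (8.78%) and in 1271 of the 10155 tested genes matched to one by symbol (12.5%). Among genes called higher 485 of 3377 held it (14.4%), among genes called lower 426 of 3692 (11.5%) and among genes not called 360 of 3086 (11.7%). For differences of at least 1, it was in 73 of 575 genes called higher (12.7%) and 116 of 1130 called lower (10.3%). The larger increases thus held it about as often as all tested genes (12.5%). By list it was present in 19 of 47 MYC targets (40.4%), in 21 of 54 ribosome biogenesis genes (38.9%) and in 4 of 63 genes of cytosolic ribosomal proteins (6.35%). The MYC target and ribosome biogenesis lists overlap, with BOP1 in both. Lists whose genes were more often lower also held it often, with 7 of 21 lysosome and autophagy genes (33.3%) and 6 of 22 glycolysis genes (27.3%). The median log2 difference was 0.03 for the 1271 genes with the motif and -0.02 for the 8884 without. A match is a description of the letters and shows no binding. The sequences given here, from 250 bases before to 30 after the start, are those of the 6 called targets with the largest increases and a motif in that stretch, with CACGTG in capitals, and for contrast the gene with the largest decrease, EPHA3, whose stretch holds none. TERT is at chr5:1295039-1295318, minus strand; HK2 at chr2:74834920-74835199, plus strand; WDR43 at chr2:28894417-28894696, plus strand; RRP9 at chr3:51941875-51942154, minus strand. FBL is at chr19:39846350-39846629, minus strand; PPAT at chr4:56435586-56435865, minus strand; EPHA3 at chr3:89107371-89107650, plus strand.
TERT: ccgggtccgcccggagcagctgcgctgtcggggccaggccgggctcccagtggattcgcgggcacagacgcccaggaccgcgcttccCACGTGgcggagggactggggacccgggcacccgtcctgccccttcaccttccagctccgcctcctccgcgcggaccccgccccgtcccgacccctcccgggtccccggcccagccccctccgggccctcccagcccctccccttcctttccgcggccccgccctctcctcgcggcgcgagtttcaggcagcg
HK2: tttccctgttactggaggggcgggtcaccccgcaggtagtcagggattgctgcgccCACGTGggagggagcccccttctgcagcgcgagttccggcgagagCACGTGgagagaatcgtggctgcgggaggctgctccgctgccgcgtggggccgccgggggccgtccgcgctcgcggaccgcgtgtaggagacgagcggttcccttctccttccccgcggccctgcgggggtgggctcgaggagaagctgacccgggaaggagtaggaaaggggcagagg
WDR43: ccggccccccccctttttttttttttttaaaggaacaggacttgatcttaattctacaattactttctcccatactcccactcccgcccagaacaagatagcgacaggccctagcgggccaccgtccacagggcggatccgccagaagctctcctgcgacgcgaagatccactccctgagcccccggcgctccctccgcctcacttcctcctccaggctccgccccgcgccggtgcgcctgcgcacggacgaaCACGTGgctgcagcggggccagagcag
RRP9: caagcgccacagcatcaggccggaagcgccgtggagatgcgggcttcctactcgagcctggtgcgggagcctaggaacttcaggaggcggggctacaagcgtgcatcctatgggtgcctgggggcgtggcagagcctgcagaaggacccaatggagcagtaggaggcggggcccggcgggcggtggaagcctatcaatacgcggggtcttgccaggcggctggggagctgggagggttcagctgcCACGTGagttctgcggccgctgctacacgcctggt
FBL: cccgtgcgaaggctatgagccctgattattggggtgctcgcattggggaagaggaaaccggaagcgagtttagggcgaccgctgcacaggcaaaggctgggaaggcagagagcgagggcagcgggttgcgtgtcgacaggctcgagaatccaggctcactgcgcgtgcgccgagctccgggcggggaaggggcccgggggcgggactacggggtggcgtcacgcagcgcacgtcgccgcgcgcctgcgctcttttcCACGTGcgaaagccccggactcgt
PPAT: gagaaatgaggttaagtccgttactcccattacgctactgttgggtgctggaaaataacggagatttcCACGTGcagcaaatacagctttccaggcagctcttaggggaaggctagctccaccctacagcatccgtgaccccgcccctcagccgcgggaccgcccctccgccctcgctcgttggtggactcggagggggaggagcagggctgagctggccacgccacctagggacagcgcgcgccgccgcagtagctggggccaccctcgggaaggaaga
EPHA3: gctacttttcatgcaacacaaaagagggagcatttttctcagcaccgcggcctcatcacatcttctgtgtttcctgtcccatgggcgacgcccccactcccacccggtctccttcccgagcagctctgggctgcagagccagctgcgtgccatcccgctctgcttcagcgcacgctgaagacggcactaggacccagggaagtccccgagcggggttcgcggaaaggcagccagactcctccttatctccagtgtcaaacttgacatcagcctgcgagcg

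The HK2 stretch holds 2 copies, which begin 194 and 149 bases before the start. The other 5 hold 1 copy each, and in WDR43 and FBL it begins 4 and 7 bases into the transcript. WDR43, RRP9 and FBL act in the nucleolus on ribosomal RNA, and PPAT commits the cell to purine synthesis.

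Most genes of ribosome production rose. Of 62 genes that build ribosomes or serve RNA polymerase I, 50 rose and 5 fell (median log2 0.44). RRP1, needed for the large subunit, had 1962, 1968 and 2050.2 normalized reads in MYC T58A, against 987, 1014 and 976 in Parental, and its relative RRP1B had 7011, 7040.3 and 6508 normalized reads in MYC T58A, against 3491, 3371 and 3386 in Parental. Both were clearly apart between the groups, at 2.01-fold higher and 2-fold higher. The nucleolar protein nucleolin, NCL, was the gene that gained the most normalized reads of all, with 79229, 78971 and 72283 normalized reads in MYC T58A, against 55176, 55823 and 55465 in Parental. NOC2L, another assembly factor, was 1.34-fold lower and its window on chromosome 1 had a median of -0.38. The genes of the ribosomal proteins themselves were more often lower: of 78, 3 rose and 41 fell (median log2 -0.23; -0.21 less their windows). RPL11 was 1.66-fold lower and RPL28 1.65-fold lower, while RPL17 was 1.64-fold higher. RPL11 is on chromosome 1 (window median -0.58) and RPL28 on chromosome 19 (window median 0.08). Their summed level spread more between MYC T58A libraries (855229.5 to 961166) than between Parental ones (1104662 to 1130082), without overlap. These genes have many processed pseudogenes, so their counts depend on how shared reads were handled, on which the sources used here are silent.

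Of 74 genes of the mitochondrial ribosome 46 rose and 6 fell (median log2 0.27), among them MRPL36 (2.33-fold higher) and MRPS30 (2.07-fold higher), both on chromosome 5, and MRPL41 (2.11-fold higher), with MRPL53 2.32-fold lower. Aminoacyl-tRNA synthetases, which charge tRNAs with amino acids, showed 22 increases and 7 decreases among 37 tested. The enzyme for asparagine, NARS, had 20132, 20356 and 17675 normalized reads in MYC T58A, against 9379, 9596 and 9467 in Parental (2.04-fold higher). YARS2 was 1.97-fold higher, TARS 1.71-fold higher and PARS2 1.55-fold lower. NARS, TARS and PARS2 lie where the window medians were 0.43, 0.53 and -0.54, and less the window their log2 differences were 0.60, 0.25 and -0.09. Of 43 translation factors 17 rose (39.5%) and 10 fell (23.3%), beside 32.1% and 34.4% of all tested genes. The initiation factor subunit EIF3B was 1.76-fold higher, EEF1E1 1.58-fold higher, EIF2S1 1.47-fold higher and the translation inhibitor EIF4EBP2 1.58-fold lower.

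**Figure D3:**
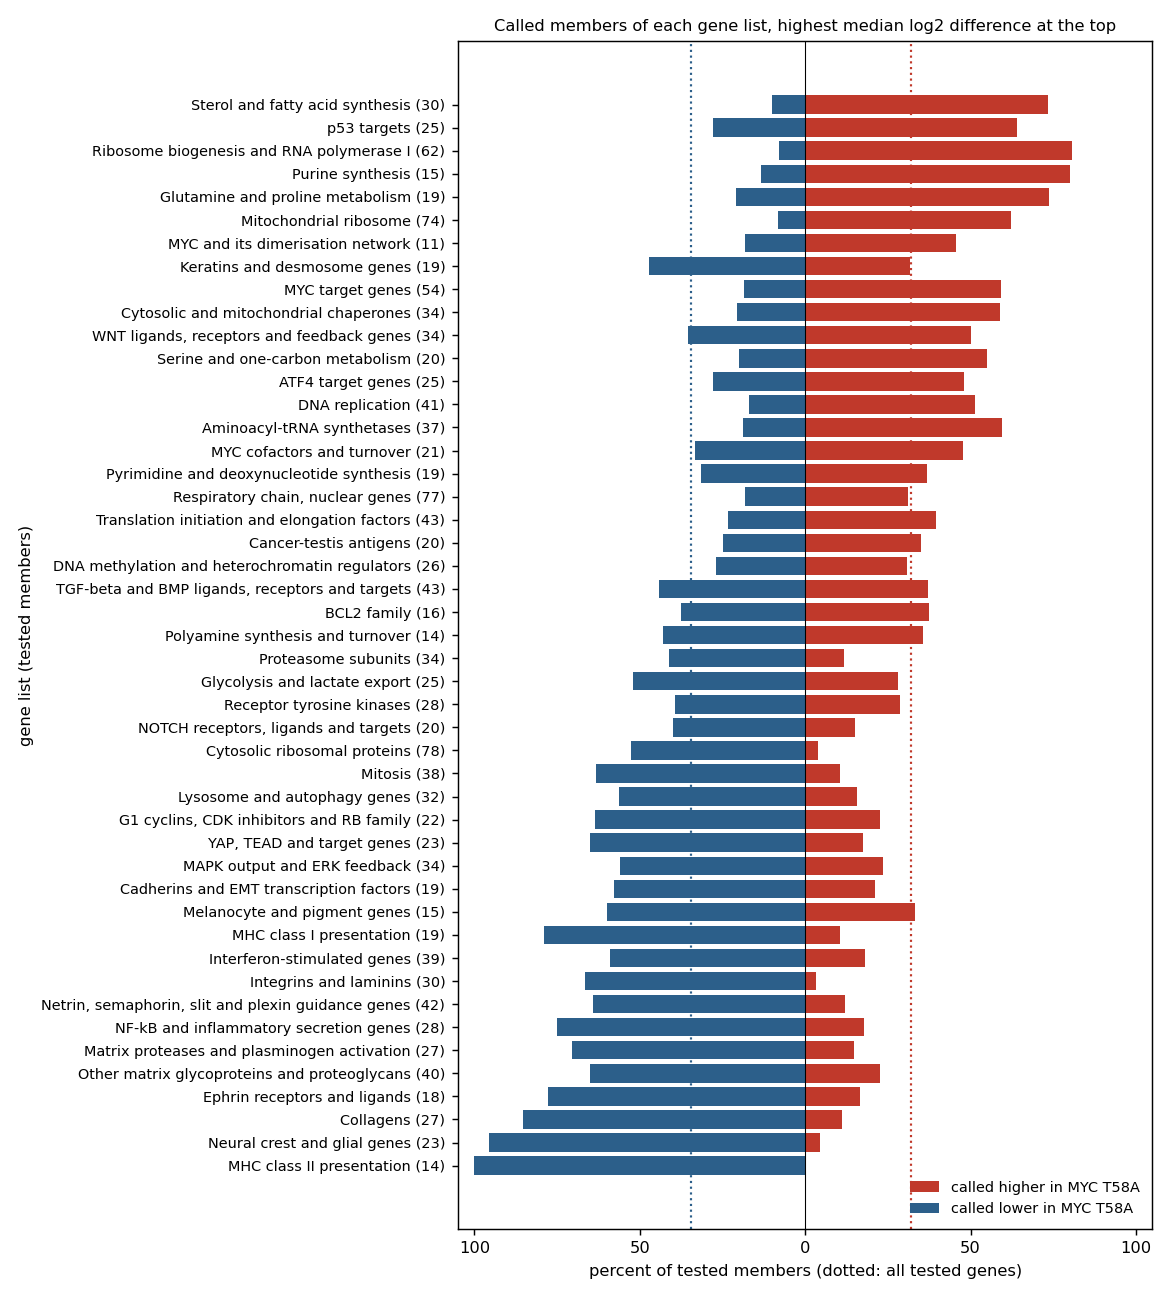
Percent of the tested members of each gene list called higher (red, to the right) or lower (blue, to the left) in MYC T58A, with the number of tested members in brackets and lists ordered by median log2 difference; dotted lines mark the percentages over all tested genes (32.1 and 34.4). Sterol synthesis, ribosome biogenesis and purine synthesis are near the top, and collagens, neural crest genes and MHC class II genes at the bottom.

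Purine synthesis rose in 12 of 15 genes and fell in 2 (median log2 0.40). PRPS2, which makes the activated ribose, was 1.76-fold higher, IMPDH1, which leads to guanine nucleotides, 1.65-fold higher, PFAS 1.63-fold higher and the muscle form ADSSL1 2.01-fold lower. Of 19 pyrimidine and deoxynucleotide genes 7 rose (36.8%) and 6 fell (31.6%), close to the shares of all tested genes (32.1% and 34.4%). The ribonucleotide reductase subunit RRM2B was 1.54-fold higher, DHODH 1.51-fold higher, UCK2 1.46-fold higher and CMPK1 1.61-fold lower. Serine and folate metabolism rose in 11 of 20 genes and fell in 4. The glycine cleavage enzyme GLDC was 2.34-fold higher, the serine enzyme PSAT1 2.03-fold higher and the mitochondrial folate enzyme MTHFD2 1.91-fold higher. SLC1A4, a transporter of neutral amino acids, fell to 70.1, 87.3 and 74.04 normalized reads in MYC T58A, against 589.8, 684 and 656 in Parental.

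Glutamine and proline metabolism rose in 14 of 19 genes and fell in 4 (median log2 0.40). Asparagine synthetase, ASNS, was 1.73-fold higher, the transaminase GPT2 1.66-fold higher and GLUD2 2.06-fold higher, the last a near copy of GLUD1 whose reads may be shared. Glutamine synthetase, GLUL, was among those that fell, with 1.00, 0 and 0 normalized reads in MYC T58A, against 63.3, 76.8 and 69.9 in Parental, which is a ratio of 209.7 (counting error gives 38.5 to 8606). Sterol and fatty acid synthesis had the highest median of all lists drawn in the plot of gene lists (0.48), with 22 of 30 genes higher and 3 lower. The early enzyme HMGCS1 had 5442, 5202 and 4602 normalized reads in MYC T58A, against 1845, 1939 and 1892 in Parental. CYP51A1, which removes a methyl group from lanosterol, had 274, 199 and 262 normalized reads in MYC T58A, against 80.99, 87.1 and 104 in Parental. DHCR7, the last step to cholesterol, had 2257, 2318 and 2394 normalized reads in MYC T58A, against 740, 750 and 721 in Parental. It was higher by 1.65 (adjusted p = 0.02), which was not called when 0.1 was added in place of 1 (adjusted p = 0.236). The libraries labelled shMYC2, which share in the spread behind these p-values, held almost no DHCR7 reads (3.45 ± 3.18, SD, n = 3). PMVK, on chromosome 1, was 1.7-fold lower.

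Glycolysis genes were more often lower than higher: 7 of 25 genes were higher and 13 lower (median log2 -0.15), with HK2, described above, higher. PFKFB4, which sets the level of a glycolytic activator, was 5.54-fold lower, ENO2 3.54-fold lower and the glucose transporter SLC2A3 2.06-fold lower. GAPDH, often used as a reference gene, had 79184, 81012 and 80988 normalized reads in MYC T58A, against 118079, 120427 and 122891 in Parental and was 1.5-fold lower. Nuclear genes of the respiratory chain showed 24 increases and 14 decreases among 77 tested. The share of increases (31.2%) was close to that of all tested genes (32.1%), and the share of decreases was smaller (18.2% beside 34.4%). SDHA was 2.05-fold higher, ATP5G1 2.02-fold higher and UQCRFS1 1.96-fold higher. SDHA and UQCRFS1 lie where the window medians were 0.53 and 0.51, and ATP5G1 where it was -0.25. Polyamine genes showed 5 increases (35.7%) and 6 decreases (42.9%) among 14 tested, beside 32.1% and 34.4% of all tested genes. ODC1, which starts the pathway and is a textbook target of MYC, was slightly lower, at 2679.9, 2844 and 2778 normalized reads in MYC T58A, against 3406, 3291 and 3383 in Parental (log2 difference -0.28, SE 0.0461, adjusted p = 3.67e-05). The spermine oxidase SMOX was 3-fold lower (chromosome 20, window median -0.55), SAT2 1.22-fold lower and SAT1 1.37-fold higher.

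Chaperones showed 20 increases and 7 decreases among 34 tested. HSPA4L was 3.2-fold higher, CCT5, a subunit of the chaperonin that folds actin and tubulin, 1.43-fold higher (chromosome 5, window median 0.53, -0.01 less the window) and DNAJB4 1.75-fold lower. HSPA1A (1.99-fold higher) and HSPA1B (2.16-fold higher) are near-identical copies, so the division of reads between them is uncertain. Proteasome subunits showed 4 increases and 14 decreases among 34 tested. PSMB10 and PSMB9, which belong to the immunoproteasome, were 1.91-fold lower and 1.75-fold lower, PSMB2 was 1.74-fold lower and PSMD12 1.23-fold higher. Targets of ATF4, which answers amino acid shortage, showed 12 increases and 7 decreases among 25 tested. CHAC1, which breaks down glutathione, was 2.02-fold higher and the mTORC1 inhibitor DDIT4 4.19-fold lower. CEBPB was higher by 0.80 (adjusted p = 0.0285), a call lost without any of 5 single libraries (Parental 1, 2 or 3, MYC T58A 2 or 3; adjusted p = 0.0552 to 0.0853). Lysosome and autophagy genes showed 18 decreases and 5 increases among 32 tested. The protease CTSK was 14.8-fold lower, CTSF 4.22-fold lower, the proton pump subunit ATP6V0D2 4.81-fold lower and the cholesterol exporter NPC1 1.51-fold higher.

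In the cell cycle, replication genes were more often higher and mitotic genes more often lower. DNA replication genes showed 21 increases and 7 decreases among 41 tested (median log2 0.15), whereas mitosis genes showed 4 increases and 24 decreases among 38 tested (median -0.24). MCM4, part of the replicative helicase, had 21609, 21613 and 20472 normalized reads in MYC T58A, against 12281, 12277 and 12183 in Parental. ORC5 was 1.54-fold higher, ORC2 1.48-fold higher and RPA2, on chromosome 1, 1.69-fold lower. Of the mitotic genes, the separase ESPL1 was 2.49-fold lower, the kinesin KIF2C 2.27-fold lower and CDC20, which activates the anaphase-promoting complex, 1.89-fold lower. Each fell by more than its window did (window medians -0.84, -0.53 and -0.46). NDC80, at the kinetochore, was 1.44-fold higher on chromosome 18. Of 22 genes of G1 control 5 rose and 14 fell, with a median of -0.27 that shrank to -0.09 less the windows. The CDK inhibitor CDKN1C had 3.01, 0 and 0.881 normalized reads in MYC T58A, against 147, 123 and 159.6 in Parental, which is a ratio of 111 (counting error gives 42.96 to 409). CDKN2C was 2.38-fold lower, E2F1 2.25-fold lower and cyclin D1, CCND1, 2.12-fold lower, while cyclin E1, CCNE1, was 1.72-fold higher. The windows of CDKN2C, E2F1 and CCNE1 had medians of -0.64, -0.42 and 0.34.

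Of 25 p53 targets 16 rose and 7 fell (median log2 0.45). GDF15, a secreted stress cytokine, had 2441, 2335 and 2611 normalized reads in MYC T58A, against 90.3, 100.4 and 77.2 in Parental and was 27.4-fold higher (log2 difference 4.78, SE 0.134, adjusted p = 4.27e-15). FDXR was 2.42-fold higher and the cell death gene BBC3 2.18-fold higher. The 2 best-known targets were slightly lower, CDKN1A with a log2 difference of -0.18 and MDM2 with -0.16, and PLK2 was 1.76-fold lower. Of 16 BCL2 family genes 6 rose and 6 fell (37.5% each), close to the shares of all tested genes (32.1% and 34.4%). The death-promoting members HRK and BOK were 7.58-fold higher and 2.47-fold higher, and the survival gene BCL2A1, a known target of MITF, was 9.03-fold lower.

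Among lineage genes, nearly all of the neural crest list fell. SOX10 stood at 11.02, 9.35 and 7.05 normalized reads in MYC T58A, against 5453, 5178 and 5215 in Parental, so that hardly any of its transcript was left in the MYC T58A libraries (528-fold lower; log2 difference -9.04, SE 0.199, adjusted p = 2.64e-15). Of 23 neural crest and glial genes 22 fell and 1 rose (median log2 -3.57). The one that rose was SOX9, a close relative of SOX10, with 3206, 3260.5 and 3378 normalized reads in MYC T58A, against 1529, 1432 and 1401 in Parental (2.26-fold higher). ERBB3, a receptor for neuregulin and a known target of SOX10, had 17.03, 19.7 and 23.8 normalized reads in MYC T58A, against 1698, 1844 and 1779 in Parental. The neural crest factor TFAP2B had no read in MYC T58A, against 204, 203 and 202 in Parental, and was at least 69.4-fold lower when 3 reads are allowed for each library without one. CDH19, a cadherin of Schwann cell precursors, had 0, 2.08 and 0 normalized reads in MYC T58A, against 184, 196 and 211 in Parental, which is a ratio of 284 (counting error gives 83.9 to 2519.9). The melanoma marker S100B was lower by a ratio of 64.1 (counting error gives 27.3 to 200.1), while PAX3, which acts above MITF, was only 1.27-fold lower. Low SOX10 with high SOX9 was not particular to MYC T58A. In the resistant cells SOX10 averaged 7.50 normalized reads, CDH19 3.48 and SOX9 2873, with MYC at 302. The libraries labelled shMYC2, with MYC at 7817, averaged 19.5 for SOX10, 0.348 for CDH19 and 2475 for SOX9. Those labelled shMYC1, with MYC at 486, went the other way (SOX10 11890, CDH19 1025, SOX9 245).

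MITF, the regulator of pigment cells, was higher rather than lower, at 3808, 3538 and 3431 normalized reads in MYC T58A, against 1511, 1508 and 1508 in Parental (2.38-fold higher; log2 difference 1.25, SE 0.079, adjusted p = 2.75e-10). The resistant cells were at a similar MITF level, with a mean of 3748, whereas the libraries labelled shMYC1 and shMYC2 averaged 1620 and 173. Of 15 melanocyte and pigment genes 5 rose and 9 fell (median log2 -0.47). The melanin enzyme DCT had 81.1, 72.7 and 81.97 normalized reads in MYC T58A, against 0, 1.02 and 2.09 in Parental, which is a ratio of 75.8 (counting error gives 25.7 to 372). TYRP1, another melanin enzyme, was higher by 3.72 on the log2 scale. The melanosome protein PMEL had 3.01, 4.15 and 1.76 normalized reads in MYC T58A, against 25.96, 20.5 and 20.9 in Parental, and MLPH, which moves melanosomes, was 2.21-fold lower. The samples are labelled as melanocytes. Of the usual melanocyte markers, MITF and PAX3 were well expressed in both groups and SOX10 in Parental, PMEL, DCT, TYRP1 and S100B had only a few reads in 1 of the groups, and TYR and MLANA were not analysed here.

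**Figure D4:**
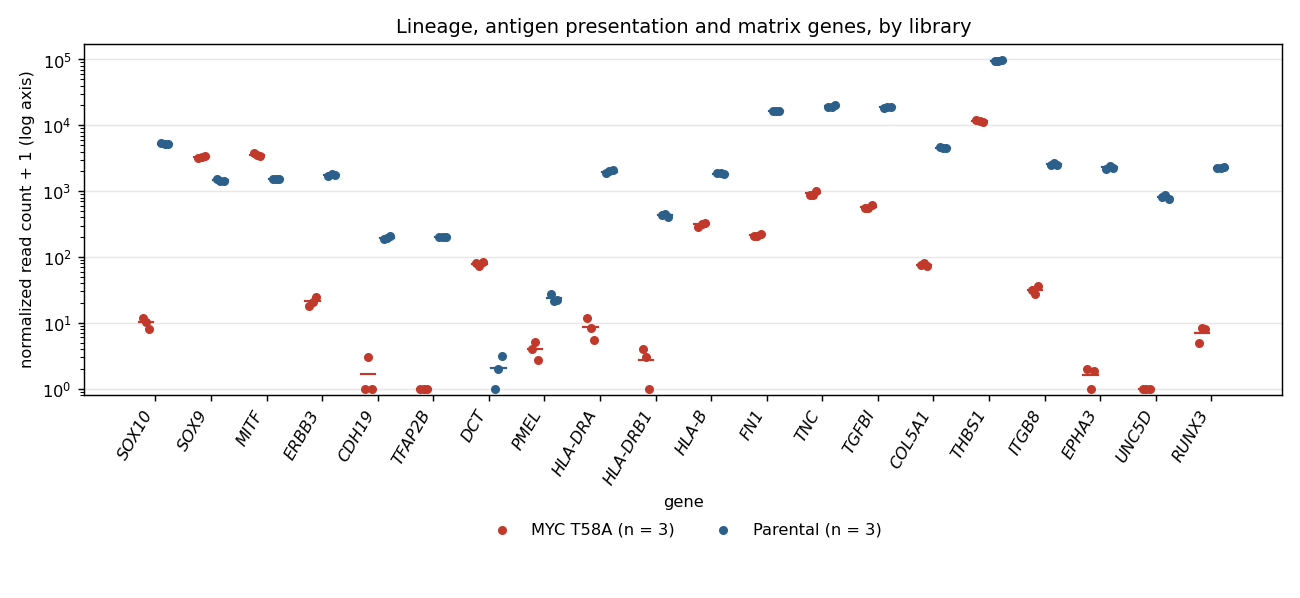
Normalized read count plus 1 (vertical, log axis) of lineage, antigen presentation, matrix and guidance genes in each library; for each gene the 3 MYC T58A libraries are red on the left and the 3 Parental libraries blue on the right, with the group mean as a line. Apart from SOX9, MITF and DCT, the red libraries lie below the blue ones for every gene drawn, and TFAP2B and UNC5D had no read in the red libraries.

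Output genes of the MAPK pathway were more often lower. Of 34, 8 rose and 19 fell (median log2 -0.35), and MYC is itself 1 of those that rose. DUSP6, the phosphatase most often read as a gauge of ERK activity, had 4813, 4991 and 5207 normalized reads in MYC T58A, against 4777, 4887 and 4931 in Parental, with overlapping groups (log2 0.04, adjusted p = 0.493). SPRY1, a feedback inhibitor, had 740.4, 736 and 789 normalized reads in MYC T58A, against 59.2, 58.4 and 67.8 in Parental (12.1-fold higher), and the immediate early gene EGR1 was 1.92-fold higher. The chemokine IL8 had 622, 599 and 585 normalized reads in MYC T58A, against 5954, 6274 and 6506 in Parental. DUSP10, a phosphatase for JNK and p38, had 126, 117 and 121 normalized reads in MYC T58A, against 1137, 1145 and 1143 in Parental. HMGA2, a chromatin protein of embryonic and tumour cells, had 7799, 7829.7 and 7487 normalized reads in MYC T58A, against 40807, 42183 and 41018 in Parental (5.36-fold lower). Of the kinases upstream, BRAF was 1.37-fold higher and NRAS, on chromosome 1, 1.39-fold lower, where the median of its window was -0.63.

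Among 28 receptor tyrosine kinases 8 rose (28.6%) and 11 fell (39.3%), close to the shares of all tested genes (32.1% and 34.4%). Their median log2 difference was -0.18, and 0.02 less their windows. AXL, a receptor tied to drug tolerance in melanoma, had 12062, 11702 and 11137 normalized reads in MYC T58A, against 19518, 19200.4 and 19218 in Parental (log2 difference -0.73, SE 0.225, adjusted p = 0.0137). All MYC T58A libraries were below all Parental ones in AXL. The libraries labelled shMYC1, which share in the spread behind this p-value, varied widely (25853 ± 9674, SD, n = 3). EGFR was 1.2-fold higher, FGFR4 3.73-fold higher and the kinase SRC 1.49-fold lower. FLT1, a receptor for VEGF, had 2.00, 1.04 and 2.64 normalized reads in MYC T58A, against 202, 212 and 209 in Parental. The neurotrophin receptor NTRK2 had 0, 1.04 and 0 normalized reads in MYC T58A, against 31.1, 46.1 and 55.3 in Parental. Ephrin receptors and ligands, which steer cells by contact, showed 14 decreases and 3 increases among 18 tested (median log2 -1.37). EPHA3 had 1.00, 0 and 0.881 normalized reads in MYC T58A, against 2205, 2414 and 2271 in Parental, the largest decrease of any named gene, which is a ratio of 3659 (counting error gives 984 to 29365). EPHA7 had 4.01, 1.04 and 3.53 normalized reads in MYC T58A, against 545, 601 and 606 in Parental. EPHA4 was 11.2-fold lower, EPHB3 13.8-fold lower and the ligand EFNA5 1.58-fold higher.

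Other axon guidance genes were also more often lower. Of 42 netrin, semaphorin, slit and plexin genes 27 fell and 5 rose. The netrin receptor UNC5D had no read in the 3 MYC T58A libraries, against 803, 887 and 752 in Parental, and was at least 279-fold lower. The netrin receptor DCC had 2.00, 9.35 and 9.70 normalized reads in MYC T58A, against 251, 283 and 250.4 in Parental. NTNG1 was 16.3-fold lower and SEMA3E 7.15-fold higher. WNT genes showed 17 increases (50%) and 12 decreases (35.3%) among 34 tested, beside 32.1% and 34.4% of all tested genes. WNT5A, the main non-canonical ligand in melanoma, had 311, 330.3 and 331 normalized reads in MYC T58A, against 3815, 3952 and 3850.3 in Parental. WNT10B, a canonical ligand, moved the other way, with 866, 814 and 848 normalized reads in MYC T58A, against 170.3, 169 and 153 in Parental. WNT7B was 6.88-fold higher and the feedback inhibitor NKD2 had 16.03, 22.9 and 17.6 normalized reads in MYC T58A, against 5.19, 2.05 and 2.09 in Parental.

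Of 43 TGF-beta and BMP genes 16 rose (37.2%) and 19 fell (44.2%), beside 32.1% and 34.4% of all tested genes. BMP5 had 738, 778 and 718 normalized reads in MYC T58A, against 16.6, 18.4 and 17.7 in Parental. BMP2 had 66.1, 66.5 and 65.2 normalized reads in MYC T58A, against 498, 499 and 504 in Parental. BMP8B was 8.33-fold lower and LTBP1, which stores TGF-beta in the matrix, 7.12-fold lower. NOTCH genes showed 8 decreases and 3 increases among 20 tested. The NOTCH target HES1 was 3.59-fold lower, the coactivator MAML2 3.88-fold lower and HES7 2.5-fold higher, and HEY2 had 0, 0 and 1.76 normalized reads in MYC T58A, against 20.8, 22.5 and 14.6 in Parental. Genes of YAP, TEAD and their targets showed 15 decreases and 4 increases among 23 tested. CYR61 was 2.27-fold lower, NT5E 2.39-fold lower and IGFBP3 2.41-fold lower, while ANKRD1, also a target of YAP, was 2.52-fold higher.

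Antigen presentation genes of both classes were mostly lower. All 14 tested MHC class II genes fell (median log2 -5.46), and their summed level was 677 to 725 normalized reads in MYC T58A libraries and 15645 to 16104 in Parental libraries. HLA-DRA, the invariant alpha chain of HLA-DR, had 11.02, 7.27 and 4.41 normalized reads in MYC T58A, against 1870.0, 2003 and 2079.6 in Parental. HLA-DRB1 had 3.01, 2.08 and 0 normalized reads in MYC T58A, against 427, 451 and 406 in Parental. HLA-DRB5 had 0, 1.04 and 0.881 normalized reads in MYC T58A, against 403, 369 and 381 in Parental, and reads of these near-identical beta chains may have been divided between them. The class II master activator CIITA had a log2 difference of -6.40 and the chaperone CD74 of -5.64. Class I genes showed 15 decreases and 2 increases among 19 tested (median log2 -0.59; -0.31 less their windows). HLA-B had 289, 316 and 329.7 normalized reads in MYC T58A, against 1868, 1859.9 and 1806 in Parental. HLA-C was 3.47-fold lower and HLA-F 7.25-fold lower, while NLRC5, an activator of class I genes, was 1.63-fold higher.

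Inflammatory and interferon genes were mostly lower as well. Of 28 NF-kB and inflammatory secretion genes 21 fell and 5 rose (median log2 -0.88). The cytokine IL1B had 4.01, 2.08 and 1.76 normalized reads in MYC T58A, against 161, 158 and 162 in Parental. IL1A was 30.9-fold lower and the growth factor CSF2 31.4-fold lower. The related factor CSF1 was 1.64-fold higher. Interferon-stimulated genes showed 23 decreases and 7 increases among 39 tested (median log2 -0.64; -0.38 less their windows). IRF7, which amplifies the interferon response, had 1.00, 0 and 1.76 normalized reads in MYC T58A, against 64.4, 64.5 and 62.6 in Parental. GBP2 had 2.00, 1.04 and 0.881 normalized reads in MYC T58A, against 55.03, 46.1 and 56.3 in Parental. CMPK2 was 6.34-fold lower and IFIT5 1.56-fold higher.

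Genes of the extracellular matrix were mostly lower. Matrix glycoproteins and proteoglycans summed to 38714 to 38820.3 in MYC T58A libraries and to 220516 to 227009 in Parental libraries, with 26 of 40 lower and 9 higher (median log2 -1.26). Thrombospondin, THBS1, had 11919, 11705 and 11289 normalized reads in MYC T58A, against 93513, 93113 and 96749 in Parental, the largest loss of normalized reads of any gene (8.12-fold lower). Fibronectin, FN1, had 206, 209 and 220.4 normalized reads in MYC T58A, against 16344, 16685 and 16663 in Parental (77.9-fold lower; log2 difference -6.28, SE 0.0514, adjusted p = 2.53e-22). TGFBI had 561, 559.9 and 622 normalized reads in MYC T58A, against 18316, 19078 and 18742 in Parental. Tenascin C, TNC, which marks invasive fronts, had 888, 869 and 1007 normalized reads in MYC T58A, against 19271, 19285 and 20263 in Parental. The exception with the largest change was TNXB, which was 7.36-fold higher. Collagens showed 23 decreases and 3 increases among 27 tested (median log2 -1.49). COL5A1, a chain of fibrillar collagen V, had 75.1, 81.02 and 71.4 normalized reads in MYC T58A, against 4604, 4449 and 4578 in Parental. COL9A3, a chain of the cartilage collagen IX, had 47.1, 59.2 and 44.1 normalized reads in MYC T58A, against 4085, 3708 and 3741 in Parental. COL19A1 had 2.00, 1.04 and 0.881 normalized reads in MYC T58A, against 177, 199 and 179 in Parental, and COL3A1 rose, to 48.1, 36.4 and 34.4 in MYC T58A, against 2.08, 2.05 and 1.04 in Parental.

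Receptors and enzymes of the matrix were mostly lower too. Integrins and laminins showed 20 decreases and 1 increase among 30 tested. ITGB8, which activates TGF-beta, had 30.1, 25.97 and 35.3 normalized reads in MYC T58A, against 2523, 2642 and 2509 in Parental. ITGB3, a melanoma progression marker, was 16.6-fold lower and ITGB7 lower by a ratio of 45.7 (counting error gives 23.8 to 100.4). The single increase was that of ITGA4, by 0.13 (adjusted p = 0.0139), a call lost without Parental library 3 or MYC T58A library 2 (adjusted p = 0.0542 and 0.0812). Matrix proteases and plasminogen genes showed 19 decreases and 4 increases among 27 tested. The protease inhibitor SERPINE2 had 5464, 5810.5 and 5959 normalized reads in MYC T58A, against 40551, 43040.3 and 41685 in Parental. MMP9 had 4.01, 5.19 and 0.881 normalized reads in MYC T58A, against 195, 170.0 and 188 in Parental. ADAMTS9 was 19.7-fold lower and MMP10 9.15-fold higher, and MMP8 had 1.00, 2.08 and 0.881 normalized reads in MYC T58A, against 82.03, 69.6 and 68.9 in Parental. Cadherins and transcription factors of the epithelial to mesenchymal transition showed 11 decreases and 4 increases among 19 tested. CDH11 had 1.00, 6.23 and 1.76 normalized reads in MYC T58A, against 95.5, 92.2 and 118 in Parental, CDH7 was 6.53-fold lower and CDH10 4.44-fold higher. Keratin and desmosome genes showed 6 increases (31.6%) and 9 decreases (47.4%) among 19 tested, beside 32.1% and 34.4% of all tested genes. KRT81, a hair keratin, had 7.01, 13.5 and 10.6 normalized reads in MYC T58A, against 1625, 1599.8 and 1608 in Parental. EVPL was higher by a ratio of 8.30 (counting error gives 4.12 to 18.6). The median of this list was 0.26 and turned to -0.35 less the windows; the window of KRT81 on chromosome 12 had a median of -0.49.

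The largest increases were of another kind. SUCNR1, the receptor for succinate, had 408, 437 and 357 normalized reads in MYC T58A, against 0, 0 and 1.04 in Parental, which is a ratio of 1152 (counting error gives 207 to 45629). RP11-64D22.2, named after a clone, had 941, 861 and 817 normalized reads in MYC T58A, against 4.15, 0 and 1.04 in Parental. Reelin, RELN, a guidance protein of neurons, had 406, 374 and 351 normalized reads in MYC T58A, against 5.19, 4.10 and 4.17 in Parental (69-fold higher). The Parental libraries held few or no reads of these genes. RTN1 was 56.2-fold higher and MAGEB2, an antigen normally made in the testis, 46.1-fold higher. TNNT2, the cardiac troponin T, had 125, 129.8 and 96.1 normalized reads in MYC T58A, against 1.04, 1.02 and 3.13 in Parental. The glutamate receptor GRIA4 was 33.6-fold higher and the lysophosphatidic acid receptor LPAR1 31.4-fold higher. The unplaced AL161626.1 had 985, 6047 and 3755 normalized reads in MYC T58A, against 56.1, 50.2 and 74.1 in Parental and AC079949.1 had 109, 505 and 646 normalized reads in MYC T58A, against 7.27, 6.15 and 8.35 in Parental. In both genes MYC T58A library 1 was far below the other 2 of its group, and still above all Parental libraries.

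The largest decreases beside EPHA3, UNC5D and SOX10 also left next to nothing. RUNX3, a transcription factor of the Runt family, had 4.01, 7.27 and 7.05 normalized reads in MYC T58A, against 2266, 2281 and 2306 in Parental (330-fold lower). RTL1, a gene derived from a retrotransposon, had 1.00, 0 and 0 normalized reads in MYC T58A, against 1026, 964 and 988 in Parental. IGFBP5, which binds insulin-like growth factors, had 5.01, 3.12 and 6.17 normalized reads in MYC T58A, against 1392, 1691 and 1490.0 in Parental. In each of these the MYC T58A libraries were at a few reads and the Parental libraries far above. SHISA2 had 0, 1.04 and 0.881 normalized reads in MYC T58A, against 472, 458 and 465 in Parental. SOX11 had 2.00, 1.04 and 0 normalized reads in MYC T58A, against 413, 433 and 419 in Parental. The prohormone convertase PCSK1 had 3.01, 0 and 4.41 normalized reads in MYC T58A, against 614, 623 and 604 in Parental, and RP4-718J7.4 had no read in MYC T58A, against 358, 323 and 311 in Parental. In all, 70 member genes had no read in any MYC T58A library, 10 of them with a Parental mean of at least 100, and 2 had no read in any Parental library. Genes with a mean of at least 100 in Parental and at most 9 reads over the 3 MYC T58A libraries numbered 59, and the converse held for 3.

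By absolute level, the genes that gained the most normalized reads after NCL were TFRC, the transferrin receptor through which cells take up iron, TXNRD1, the cytosolic thioredoxin reductase, CCT5, the histone chaperone SET and NARS. TFRC had 29403, 30985 and 27736 normalized reads in MYC T58A, against 15419.8, 15393 and 15788 in Parental (1.89-fold higher). TXNRD1 had 25735, 25422 and 23519 normalized reads in MYC T58A, against 11591, 11635 and 12017 in Parental (2.12-fold higher). SET was 1.46-fold higher. Those that lost the most after THBS1 were ENO1, GAPDH, the cytoplasmic actin ACTG1, SERPINE2 and HMGA2. ACTG1 had 40044, 39200.3 and 38719.8 normalized reads in MYC T58A, against 78078, 75644 and 78780.3 in Parental. For each of these genes the MYC T58A and Parental libraries did not overlap.

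Cancer-testis antigens, made in germ cells and some tumours, showed 7 increases (35%) and 5 decreases (25%) among 20 tested, beside 32.1% and 34.4% of all tested genes. MAGEB2 had 1979, 1929 and 1898 normalized reads in MYC T58A, against 56.1, 31.7 and 38.6 in Parental and MAGEA1 had 2411, 2284 and 2337 normalized reads in MYC T58A, against 397, 378 and 389 in Parental. MAGEA10 was 1.66-fold higher, and GAGE2A, which has near-identical neighbours, had 0, 1.04 and 0 normalized reads in MYC T58A, against 51.9, 35.8 and 35.5 in Parental. Regulators of DNA methylation and heterochromatin showed 8 increases (30.8%) and 7 decreases (26.9%) among 26 tested, also near the shares of all tested genes. MBD2, which binds methylated DNA, was 1.89-fold higher, the remodeller HELLS 1.59-fold higher, the methyltransferase DNMT3B 1.56-fold higher and the heterochromatin protein CBX5 1.94-fold lower. The medians of both lists lay close to that of all genes (-0.01 and -0.03). Under total-count scaling both turned positive (0.03 and 0.01), as did the median of all genes (0.03).

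Whole chromosomes differed between the groups. With 14016 of the 15641 genes placed on a chromosome by GENCODE release 29 and RefSeq names, the median log2 difference was -0.45 for the 1401 genes of chromosome 1, -0.39 for the 356 of chromosome 20 and 0.58 for the 212 of chromosome 18. The other chromosomes lay between -0.07 and 0.10. On chromosome 1, 10.6% of genes rose and 67.0% fell, on chromosome 20 12.6% and 66.9%, and on chromosome 18 68.9% and 14.6%. The 3 MYC T58A libraries gave nearly the same medians (chromosome 1: -0.46, -0.45 and -0.46). Some chromosomes changed in part only. Along the gene order, the first 110 genes of chromosome 5, PLEKHG4B to ZNF131, had a median of 0.51, with 78 higher and 15 lower. On chromosome 12 the 142 genes KRT86 to TBK1 had a median of -0.73, with 116 lower and 9 higher. Set beside the same Parental libraries, the resistant cells of the series had medians of -0.37 on chromosome 20, 0.08 on chromosome 1 and 0.06 on chromosome 18, and of -0.51 for the stretch on chromosome 5. The libraries labelled shMYC1 had medians of 0.03 on chromosome 20 and -0.05 on chromosome 5, nearer to Parental than the resistant cells were (-0.37 and -0.51). All of these differences share the Parental libraries. Of the genes named above, NOC2L, RPL11, CCT5, PARS2, CMPK1, PSMB2, RPA2, NDC80, CBX5 and NPC1 lie in such stretches or chromosomes. They differed from the median of their window by -0.19 to -0.01, a set chosen after the values were seen. Copy number was not measured here, so DNA dosage and other regional differences cannot be told apart.

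**Figure D5:**
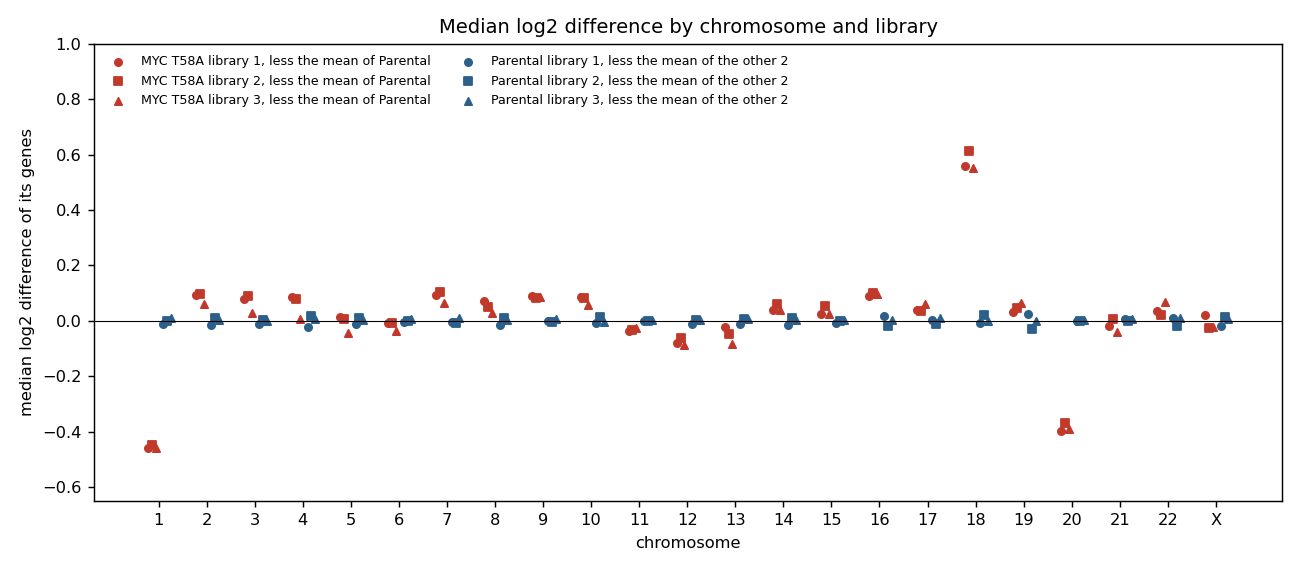
Median log2 difference of the genes of each chromosome (vertical) by chromosome (horizontal); red marks show each MYC T58A library less the mean of Parental, and blue marks each Parental library less the mean of the other 2. Chromosomes 1 and 20 lie near -0.4 and chromosome 18 near 0.6 in all 3 MYC T58A libraries, while the Parental marks stay close to 0.

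By kind of gene, long intergenic RNAs rose in 41.3% of 167 cases and fell in 21.0%, protein-coding genes in 33.1% and 36.7% of 12850, and processed pseudogenes in 9.63% and 21.5% of 270. Markers of other cell types were counted as well, of which PTPRC, CD3E, MS4A1, CD14, CDH1 and PECAM1 were not analysed here, and ELF3, CDH5 and VWF were below the filter. Of 12 fibroblast markers 3 rose and 7 fell, with a summed level of 1423 to 1458 in MYC T58A and 4136 to 4338 in Parental, and PDPN was at 0 in MYC T58A. S100A4 was 5.4-fold lower and DCN 4.09-fold lower, while THY1 had 12.02, 15.6 and 13.2 normalized reads in MYC T58A, against 2.08, 3.07 and 3.13 in Parental, which was not called when 0.1 was added in place of 1 (adjusted p = 0.0766). Of 4 immune markers 3 fell (summed 34.1 to 47.6 in MYC T58A and 263 to 302 in Parental), led by LYZ with 3.01, 1.04 and 2.64 normalized reads in MYC T58A, against 189, 180.3 and 155 in Parental. Of 5 endothelial markers all 5 fell (summed 143 to 174 in MYC T58A and 662 to 695 in Parental), among them FLT1 above and TIE1 (5.1-fold lower). Of 5 epithelial markers 2 rose and 2 fell (summed 11684 to 12939 in MYC T58A and 7921 to 8136 in Parental). KRT8 and KRT18 were 3.19-fold higher and 1.36-fold higher, whereas KRT14 had 1.00, 0 and 1.76 normalized reads in MYC T58A, against 95.5, 95.2 and 103 in Parental and KRT5 2.00, 1.04 and 2.64 in MYC T58A, against 39.5, 27.7 and 34.4 in Parental. The part of such cells in the results was not tested. As signs of RNA quality, 3 of 13 mitochondrially encoded transcripts fell, with overlapping summed levels (174157 to 219193 in MYC T58A and 209985 to 248416 in Parental), and 3 of 13 histone genes rose and 2 fell. Several of these calls were weak. MT-ND3 was not called under quantile normalization (adjusted p = 0.0535), total-count scaling (0.0908), with the 6 libraries alone (0.0689), without the libraries of either hairpin label (0.0539 and 0.0589) or without Parental 1 or 3 or MYC T58A 1 or 2 (0.0799 to 0.185). MT-ATP8 was not called without Parental 1 or MYC T58A 2 (0.0798 and 0.0865), nor HIST1H1C without Parental 1 or MYC T58A 1 (0.0504 and 0.0543). HIST1H4C was lost with 0.1 added in place of 1 (0.0511) and without any 1 of the 6 libraries (0.051 to 0.141). HIST1H2BD was lost under both other scalings (0.0579 and 0.122), both other added values (0.0577 and 0.0582), no filter (0.0502), edgeR (0.0776), without the shMYC1 label (0.0748) and without Parental 1 or 3 or MYC T58A 2 or 3 (0.105 to 0.149).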

How the data were processed

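RNA purified on Qiagen columns went into stranded mRNA libraries of a Kapa kit, per the labels' protocols. Per the submitters' processing notes, Trim Galore, cutadapt, STAR, HTSeq and DESeq2 were used. On versions, genome build, annotation and counted strand the sources used here are silent, so overlapping and antisense genes are uncertain. The deposited signal values per gene symbol are reads scaled by the size factor of their library. That follows from the values: in all 15 columns they are whole multiples of a single step within a tolerance of 0.01. The table holds no gene whose highest library is under 10 reads. Column names give the group but not the replicate of the labels, so libraries are numbered in column order.

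Values were transformed to log2(value + 1), and limma 3.58.1 (trend, robust; R 4.3.3) estimated 5 group means from the 15 libraries together. Benjamini-Hochberg adjustment of p ran over the 15641 member genes, with calls at 0.05. The design was written for either raw or normalized values, and the test for normalized values was used. The test was also run on simulated data in which far fewer genes changed than here. That run cannot show how the test behaves when changes are this widespread. Ratios for genes with at most 9 reads in the lower group are ratios of means with an exact 95% interval (confidence 0.95) that covers counting error alone, and genes without a read get a bound that takes 3 reads per library. Windows hold 51 neighbouring genes, and stretches are runs of at least 25 genes whose window medians lie beyond 0.4.

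Alternatives were edgeR 4.0.16 and DESeq2 1.42.0 on the recovered reads, quantile and total-count scaling, other pseudocounts, filters and fits, and leaving out each library. The 53 gene lists, the members and the naming rule were chosen with earlier results of these data known. The rule names MYC and 8 fixed genes, the 12 largest increases and decreases among called genes without overlap and a mean of at least 100 in the higher group, the 6 that gained and lost the most normalized reads, every measured member of the MYC network, and for each list up to 3 called members of the commoner direction and 1 of the opposite one. TYRP1, S100B, PAX3, CIITA, CD74, CDKN1A, MDM2, CCND1 and EGR1 were added after their values were seen. A few genes that the rule names are not reported here.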

Additional observations from a re-analysis of the deposited data

How the results depend on the processing

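The count of 10396 called genes stayed between 8862 (adjusted p under 0.01) and 11480 (the 6 libraries alone) under all alternatives but the test against a minimum difference of 0.5 on the log2 scale, which called 3720 genes, 1448 higher and 2272 lower. Leaving out 1 of the 6 libraries gave 9630 to 9889 calls, 4609 to 4761 of them higher and 5002 to 5129 lower. On the recovered reads, edgeR called 10737 and DESeq2 10326 genes, and they shared 10339 and 10075 of the calls in the same direction. Higher genes made up 48.3% of calls, 54.3% after quantile normalization and 51.6% under total-count scaling. A fit without the libraries labelled shMYC1, chosen after seeing the data, called 10889 genes. None of the 240 named genes reversed under an alternative. Under the minimum difference of 0.5, 49 of them were no longer called, AXL among them. AXL was also lost at an adjusted p under 0.01 (0.0137). MNT was gained in 6 alternatives, MLX in 3, and MYCL and MXD4 after quantile normalization. The median of the receptor tyrosine kinases turned to 0.07 with a value minimum of 50. No paired analysis was possible because the columns of the table carry no replicate number of the labels. Each group has 3 libraries of 1 cell line, so the calls say nothing about another introduction of MYC T58A, and genes below about 10 reads per library are at the limit of this depth.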
